A study of Homo sapiens with 6 samples.

Results

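The proteasome genes described here are 42 of the 78304 genes in the deposited table, chosen by symbol as the subunits, activators and assembly factors of the constitutive proteasome. They comprise 7 genes of the alpha ring, 7 of the beta ring, 6 ATPases and 13 non-ATPases of the regulatory cap, 4 activator genes and 5 assembly factors. All 42 symbols were found, none was repeated, and all passed the filter of a mean of at least 1 TPM that left 14275 genes for testing. Messenger RNA had been sequenced from Huh7, an established wild-type hepatocellular carcinoma line. Plated cells were given DMSO, the vehicle, or 16'-DEC 24 h after seeding and kept for another 24 h. There were 3 libraries per group. Of the compound only the code name is given, and the labels state no dose. Both groups had the same genotype and medium and differed, by their labels, in the agent alone. Separate cultures are not stated for the replicates, so p-values cover only the variation from library to library, which may be technical.

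The proteasome degrades proteins that carry ubiquitin chains. Its barrel-shaped core stacks outer alpha rings, which form the gate, on inner beta rings, which hold the proteolytic sites. A cap with a ring of ATPases and a set of non-ATPase subunits binds ubiquitin, unfolds the substrate and feeds it into the core. Cells under proteotoxic stress are known to raise proteasome genes together through the transcription factor NFE2L1. In hepatocytes, which secrete large amounts of protein, the proteasome also removes misfolded proteins of the endoplasmic reticulum. Levels are in TPM, transcript abundances scaled by gene length and by library, which can therefore be compared between genes, as far as the lengths used by the authors were right. TPM carry no absolute depth, so the read number behind each value is unknown.

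All 8 hepatocyte and hepatoma markers were above a mean of 1 TPM, and they summed to 11100 to 11500 TPM with DMSO and 9660 to 10100 TPM with 16'-DEC. As deposited, AFP, APOB and ALB fell, APOA1, SERPINA1 and HNF4A rose, and TTR and GPC3 did not pass an adjusted p of 0.05. ALB passed narrowly (adjusted p = 0.0487). Markers of other cell types were low: 4 leukocyte markers summed to 4.73 to 5.88 TPM with DMSO and 5.91 to 7.53 TPM with 16'-DEC, with CD3E at 0. The 3 endothelial markers reached at most 0.717 TPM and the 3 fibroblast markers at most 0.581 TPM. Of the 2 erythroid markers HBB was at 0, while HBA1 was at 98.5 TPM in DMSO replicate 3 and at 0 to 4.04 TPM elsewhere. Without that library all 42 members kept the call they had with it. Among all tested genes, 71.5% passed an adjusted p of 0.05 between the groups, and the median gene changed by -0.31 on the log2(TPM + 1) scale, on which all changes are given.

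In the values as deposited, the proteasome genes went mostly the other way from the typical gene. Among the 42 members, 26 rose and 13 fell, 3 showed no change past the threshold, and their median change was 0.33. In bulk RNA a lower level in each cell and fewer cells with the transcript cannot be told apart. Among all tested genes 22.7% rose and 48.9% fell. The mean levels of the members that rose were 1.18 to 2.29 times those with DMSO, and of those that fell 0.316 to 0.797 times. The groups did not overlap for 40 members, as for 75.3% of all tested genes. Together the members held 0.831% of all TPM with DMSO (8310 ± 199 TPM, mean ± SD, n = 3, as for all levels with ±) and 0.938% with 16'-DEC (9379 ± 173 TPM). The split depended on the scaling between libraries. Median-of-ratios scaling, which raised the median of all genes by 0.29, gave 29 higher and 7 lower members (37.1% and 37.7% of all genes), and quantile normalization, which raised it by 0.41, gave 27 higher and 11 lower (42% and 33.3% of all genes). The same 26 members were higher as deposited and under both scalings. Median-of-ratios scaling shifted all members upward, so it could hardly remove a higher call.

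**Figure D1:**
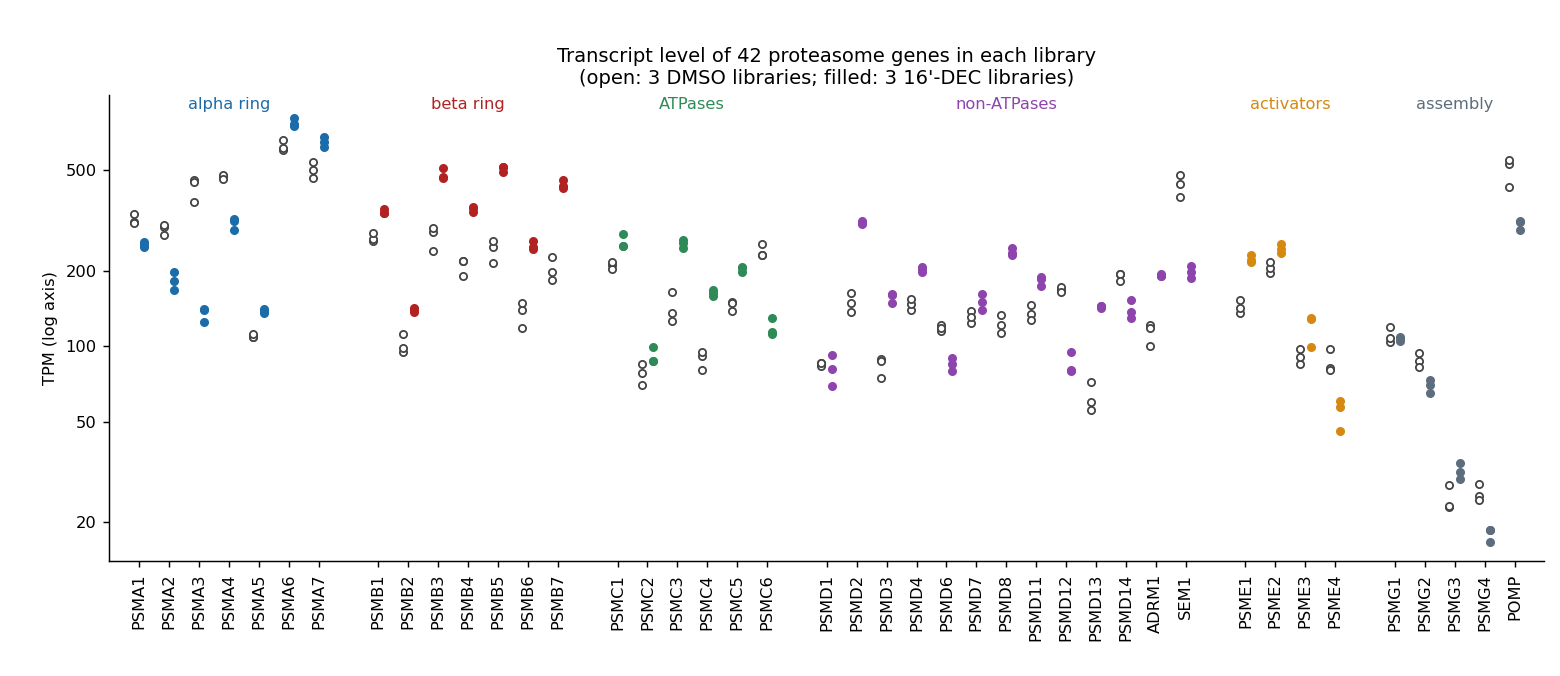
TPM on a log axis of each of the 42 genes, ordered by subcomplex, with 3 open points for the DMSO libraries and 3 filled points for the 16'-DEC libraries. Filled points lie above the open ones throughout the beta ring, and on both sides of them in the alpha ring and the cap.

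The alpha ring split. These 7 subunits frame the entry channel and give the beta ring its template; 3 rose, 4 fell, and the median change was -0.33, against 0.03 under median-of-ratios scaling and 0.38 once GC content was adjusted for, as described further on. PSMA7 was at 466, 539 and 504 TPM with DMSO and at 620, 649 and 676 TPM with 16'-DEC, so that every treated library lay above every control. Its change was 0.37 ± 0.0747 (± SE, as for all changes with ±; adjusted p = 0.0019). PSMA5 was at 109, 109 and 112 TPM with DMSO and at 138, 136 and 140 TPM with 16'-DEC, a change of 0.32 ± 0.0628 (adjusted p = 0.00141). PSMA6, the most abundant member in both groups, went from 625 ± 31.9 to 773 ± 28.8 TPM (0.31, adjusted p = 0.0029).

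The subunits PSMA1 to PSMA4 were the alpha genes that fell. PSMA3 was at 458, 449 and 374 TPM with DMSO and at 125, 139 and 141 TPM with 16'-DEC, the lowest fold of all 42 members (-1.65 ± 0.0947, adjusted p = 8.19e-07). PSMA3 (ENSG00000100567) lies on chromosome 14 from 58244831 to 58272012 on the plus strand (GRCh38, GENCODE 29, as for all gene positions). PSMA2 was at 298, 304 and 276 TPM with DMSO and at 167, 182 and 198 TPM with 16'-DEC (-0.68 ± 0.082, adjusted p = 7.43e-05; 0.41 after GC adjustment). The groups did not overlap for either gene. PSMA4 fell by 0.61 (0.38 after GC adjustment) and PSMA1 by 0.33 (adjusted p = 3.74e-05 and 0.00173), the latter at 0.03 and without a call under median-of-ratios scaling (adjusted p = 0.783). In the controls PSMA3 and PSMA7 stood at 0.853 ± 0.121 to 1, and with 16'-DEC at 0.208 ± 0.00648 to 1, a ratio within each library from which any library-wide scaling factor cancels. A shift that depends on GC content does not cancel. The transcript GC contents of PSMA3 and PSMA7 are 40.7% and 53.1%, and their changes after GC adjustment were -0.62 and 0.29.

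All 7 genes of the beta ring rose, with a median change of 0.83. They rose under both scalings and after GC adjustment too, with medians of 1.18, 0.79 and 0.75. The largest changes were those of 2 of the 3 catalytic subunits. PSMB7, which carries the trypsin-like site, was at 184, 198 and 227 TPM with DMSO and at 426, 435 and 456 TPM with 16'-DEC (1.11 ± 0.0863, adjusted p = 4.68e-06; ENSG00000136930, chromosome 9, 124353466 to 124415444). PSMB5, the chymotrypsin-like subunit and the main target of clinical proteasome inhibitors, was at 214, 247 and 262 TPM with DMSO and at 516, 493 and 516 TPM with 16'-DEC (1.08 ± 0.0842, adjusted p = 4.9e-06; ENSG00000100804, chromosome 14, 23016543 to 23035230). For both genes the lowest treated library was well above the highest control. PSMB6, the caspase-like subunit, went from 135 ± 15.7 to 251 ± 9.34 TPM (0.89 ± 0.0925, adjusted p = 2.97e-05).

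The beta subunits without catalytic activity rose as well, by 0.83 for PSMB3, 0.75 for PSMB4, 0.45 for PSMB2 and 0.34 for PSMB1 (adjusted p from 2.48e-05 to 0.00128). With DMSO the highest levels in the ring were those of PSMB3 (273 ± 30.5 TPM) and PSMB1 (271 ± 11.2 TPM), which did not differ beyond their spread. With 16'-DEC PSMB5 (508 ± 13.4 TPM) and PSMB3 (484 ± 25 TPM) were at the top. Their means were within their spread, but PSMB5 was the higher in every treated library. PSMB1, at 342 ± 7.52 TPM, was slightly under PSMB4 (351 ± 8.91 TPM) in every treated library. PSMB2 was the lowest in both groups (102 ± 9.18 and 140 ± 2.7 TPM). Summed over the ring, beta transcripts went from 1434 ± 119 to 2514 ± 69.6 TPM, while alpha transcripts went from 2749 ± 67.9 to 2438 ± 99.6 TPM. The beta sum was thus 0.479, 0.519 and 0.568 times the alpha sum in the DMSO libraries and 1.06, 1.01 and 1.02 times in the 16'-DEC libraries, without overlap. Of the alpha genes 3 rose and 4 fell, and the largest fall was that of PSMA3, from 427 ± 45.9 to 135 ± 9.04 TPM. A shift that depends on GC content does not cancel in this ratio. Median GC content is 42.1% in the alpha ring and 51.8% in the beta ring. After GC adjustment their median changes were 0.38 and 0.75. In the alpha and beta rings the levels of the subunits lay further apart after treatment: the SD of log2 TPM over the 7 genes was 0.82 to 0.842 with DMSO and 1.01 to 1.03 with 16'-DEC for the alpha ring, and 0.5 to 0.576 and 0.641 to 0.669 for the beta ring. The same SD was 0.598 to 0.701 and 0.581 to 0.644 for the ATPases, 0.606 to 0.748 and 0.535 to 0.636 for the non-ATPases, 0.541 to 0.643 and 0.951 to 1.08 for the activators, and 1.69 to 1.85 and 1.54 to 1.64 for the assembly factors, so the spread did not widen in every subcomplex.

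**Figure D2:**
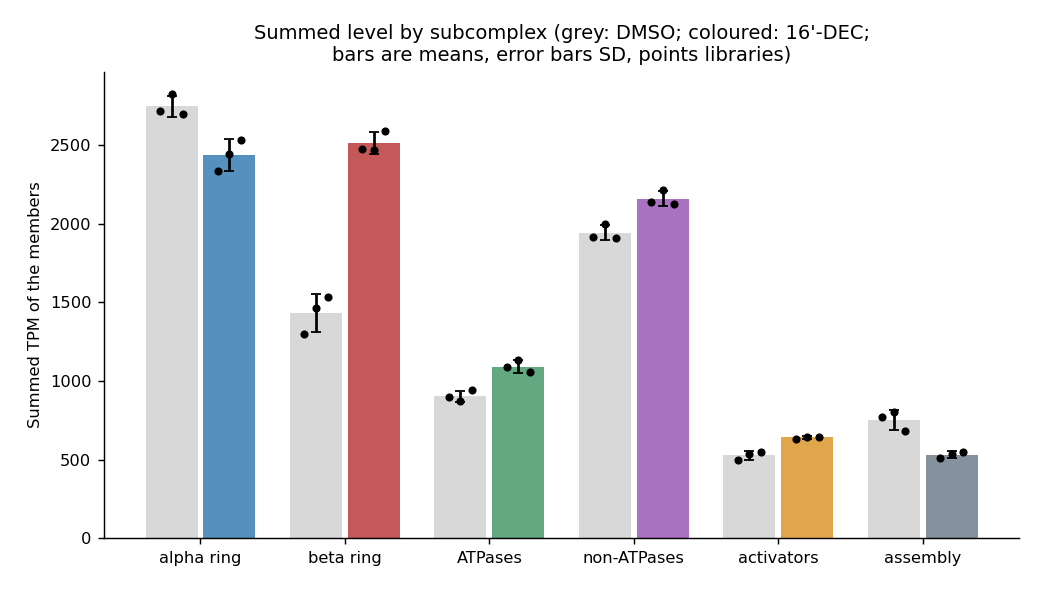
Summed TPM of the members of each subcomplex, as means with SD and the single libraries, in grey for DMSO and in colour for 16'-DEC. The beta ring bar goes from 1434 to 2514 TPM and reaches the level of the alpha ring, while the assembly factors go from 752.2 to 532.6 TPM.

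The ATPases form the ring of the cap that unfolds substrates and opens the gate. Of these 6 genes 5 rose and 1 fell, with a median change of 0.39. PSMC4 was at 80.2, 91.7 and 94.8 TPM with DMSO and at 168, 163 and 159 TPM with 16'-DEC (0.88 ± 0.0806, adjusted p = 1.38e-05). PSMC3 was at 135, 126 and 165 TPM with DMSO and at 264, 257 and 245 TPM with 16'-DEC (0.85 ± 0.102, adjusted p = 7.2e-05). Every treated library was above every control for both. PSMC5 rose by 0.47 and PSMC1 by 0.31 (adjusted p = 2.11e-04 and 0.00422). PSMC2, at 77.7 ± 7.48 and 91.3 ± 6.84 TPM, passed narrowly (0.23 ± 0.0932, adjusted p = 0.0496). PSMC2 lost its call when replicate 1 or 2 of the controls (adjusted p = 0.0881 and 0.166) or of the treated libraries (0.0677 and 0.165) was left out. PSMC6 was the ATPase that fell, from 256, 231 and 230 TPM to 112, 129 and 114 TPM (-1.01 ± 0.0818, adjusted p = 6.26e-06; 0.36 after GC adjustment; ENSG00000100519, chromosome 14, 52707172 to 52728587). The 6 subunits occur once each in the ring, and PSMC6 transcripts stood at 1.71 ± 0.276 times those of PSMC3 with DMSO and at 0.465 ± 0.0395 times with 16'-DEC. The transcript GC contents of PSMC6 and PSMC3 are 36.8% and 56.2%. After GC adjustment both were higher, by 0.36 and 0.63.

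The non-ATPases of the cap bind ubiquitin chains, remove them and hold the cap together. Of these 13 genes 7 rose and 4 fell, 2 missed the threshold, and the median change was 0.42. PSMD13, a subunit of the lid, had the largest increase of all members: it was at 55.7, 60.3 and 72.2 TPM with DMSO and at 144, 145 and 142 TPM with 16'-DEC (1.19 ± 0.0977, adjusted p = 6.58e-06; ENSG00000185627, chromosome 11, 236546 to 252984). PSMD2, a large scaffold at the base of the cap that docks ubiquitin shuttles, was at 137, 163 and 148 TPM with DMSO and at 310, 306 and 314 TPM with 16'-DEC (1.05 ± 0.078, adjusted p = 3.61e-06). The treated libraries of both genes lay in a narrow range above all controls. PSMD8 rose by 0.95 and PSMD3 by 0.90, both lid subunits, as did PSMD11, by 0.42. The ubiquitin receptors ADRM1 and PSMD4 rose by 0.76 and 0.46 (adjusted p from 6.92e-06 to 9.38e-04 for these 5 genes).

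SEM1, the smallest lid subunit, fell from 479, 443 and 392 TPM to 187, 197 and 208 TPM (-1.14 ± 0.0873, adjusted p = 4.23e-06; 0.35 after GC adjustment). PSMD12, also of the lid, fell from 167, 172 and 164 TPM to 79.9, 94.5 and 80.8 TPM (-0.98 ± 0.0823, adjusted p = 7.9e-06; 0.47 after GC adjustment). The groups were far apart for both. PSMD14, the deubiquitinase that removes chains at the entry to the core, went from 190 ± 6.57 to 140 ± 11.7 TPM (-0.44, adjusted p = 8.82e-04), and PSMD6 fell by 0.47 (adjusted p = 3.55e-04). With median-of-ratios scaling PSMD14 and PSMD6 were at -0.09 and -0.13 and did not pass. PSMD7, the partner of PSMD14, was at 124, 138 and 131 TPM with DMSO and at 150, 162 and 139 TPM with 16'-DEC, which did not overlap but did not pass (0.20 ± 0.0804, adjusted p = 0.0546). PSMD1, a scaffold of the base, was at 85.9, 83.3 and 85.7 TPM with DMSO and at 81.5, 91.9 and 69.8 TPM with 16'-DEC, with the treated libraries on both sides of the controls (-0.08 ± 0.1, adjusted p = 0.516). The 2 cap genes that did not pass did so as higher with median-of-ratios scaling (0.54 for PSMD7 and 0.27 for PSMD1), and PSMD7 also without 16'-DEC replicate 3 (0.25, adjusted p = 0.0191).

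The activator genes encode rings that can bind the core in place of the cap. PSME1 and PSME2 encode the subunits of an activator linked to antigen processing, PSME3 a nuclear relative, and PSME4 a large monomeric activator. Of these 4 genes 3 rose and 1 fell, with a median change of 0.31. PSME1 was at 135, 142 and 153 TPM with DMSO and at 221, 216 and 231 TPM with 16'-DEC (0.63 ± 0.0723, adjusted p = 5.63e-05), while its partner PSME2 went from 205 ± 10.5 to 245 ± 11.1 TPM (0.25, adjusted p = 0.0108). PSME2 was the more abundant of the pair in every library of both groups, and with 16'-DEC PSME1 and PSME2 were at 223 ± 7.38 and 245 ± 11.1 TPM. PSME3 was at 84.8, 90.9 and 97.9 TPM with DMSO and at 129, 128 and 99.3 TPM with 16'-DEC, where replicate 3 stayed close to the controls (0.37 ± 0.112, adjusted p = 0.0153). PSME3 lost its call when replicate 1 of the controls (adjusted p = 0.0563) or replicate 1 or 2 of the treated libraries (0.0569 and 0.0608) was left out. PSME4 fell from 81.6, 97.8 and 80.4 TPM to 46.2, 57.3 and 60.5 TPM (-0.66 ± 0.119, adjusted p = 9.57e-04), but did not pass with median-of-ratios scaling (-0.31, adjusted p = 0.0695) and was at 0.46 after GC adjustment.

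Assembly factors guide the building of the core and leave or are degraded once it is complete. Of these 5 genes 1 rose and 3 fell, 1 missed the threshold, and the median change was -0.33 as deposited, 0.02 when scaled by median of ratios and 0.06 once adjusted for GC. POMP, the factor that places beta subunits on the alpha ring, fell from 532, 549 and 429 TPM to 290, 312 and 316 TPM (-0.71 ± 0.0992, adjusted p = 1.94e-04; 0.84 after GC adjustment; ENSG00000132963, chromosome 13, 28659104 to 28678925). PSMG4 was at 25.3, 28.3 and 24.4 TPM with DMSO and at 18.6, 16.6 and 18.6 TPM with 16'-DEC (-0.51 ± 0.0903, adjusted p = 8.24e-04), and its partner PSMG3 at 22.9, 23.1 and 28.2 TPM and at 31.7, 29.6 and 34.2 TPM (0.36 ± 0.103, adjusted p = 0.0126). These chaperones of the alpha ring act as a dimer, and their transcripts went in opposite directions as deposited, but PSMG3 was at 0.06 and without a call after GC adjustment (adjusted p = 0.557). The other alpha ring dimer is formed by PSMG1 and PSMG2. PSMG2 fell by 0.33 (adjusted p = 0.00519; 0.02 and -0.10 with median-of-ratios scaling and quantile normalization, without a call), while PSMG1 was at 104, 108 and 119 TPM with DMSO and at 105, 108 and 109 TPM with 16'-DEC and overlapped (-0.04 ± 0.0743, adjusted p = 0.644). PSMG1 was called higher with median-of-ratios scaling (0.31, adjusted p = 0.00934) and after GC adjustment (0.23, adjusted p = 0.0152). PSMG4 did not pass with either scaling (-0.17 and -0.09).

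**Figure D3:**
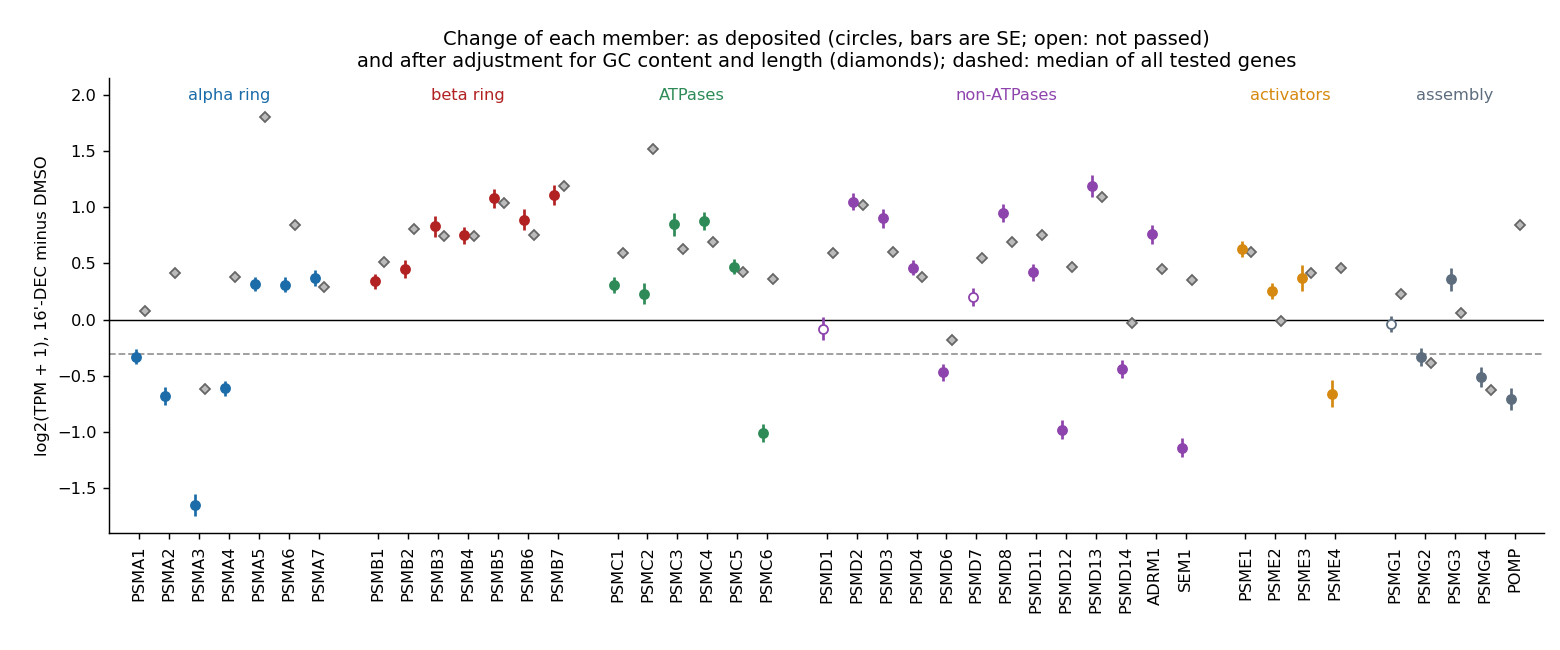
Difference in log2(TPM + 1), 16'-DEC minus DMSO, for each member: circles with SE as deposited, open where the adjusted p was above 0.05, diamonds after adjustment for GC content and length, and a dashed line at the median of all tested genes (-0.31). The beta ring lies wholly above 0 under both, whereas PSMA1, PSMA2, PSMA4, PSMC6, PSMD1, PSMD12, SEM1, PSME4, PSMG1 and POMP cross from below to above 0 and PSME2 from above to below.

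The direction of a member went with the GC content of its transcript. The 26 genes that rose had a median GC content of 52.6% and the 13 that fell 41.5%, and across the 42 genes, which share the 6 libraries and are not replicates, Spearman's rho between change and GC content was 0.726. It was 0.68 over the 13291 tested genes with a GC value, so the relation was not one of the proteasome alone. In members with a GC content under 45%, 3 rose, 8 fell and 1 did not pass, against 3.54% higher and 85.4% lower among all tested genes of that class. In those of 45% to 50%, 5 rose, 3 fell and 2 did not pass (15.9% and 50.8% of all genes), and in those of 50% and over 18 rose and 2 fell (42.1% and 19.1% of all genes). The medians of members in the 3 classes were -0.67, 0.25 and 0.75, and those of all genes -1.11, -0.33 and 0.18. Median GC content was 51.8% in the beta ring and 42.1% in the alpha ring, and after adjustment for GC content the medians of the rings were 0.75 and 0.38. Why changes went with GC content was not tested.

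**Figure D4:**
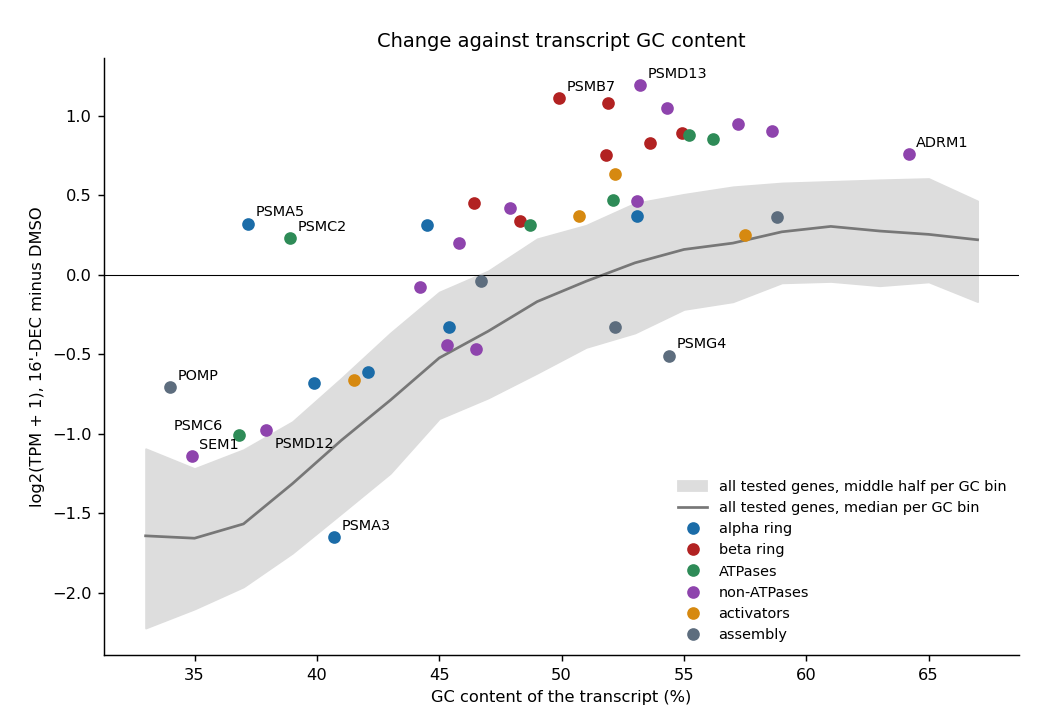
Difference in log2(TPM + 1), 16'-DEC minus DMSO, against the GC content of the transcript in percent, with coloured points for members by subcomplex, a grey line for the median of all tested genes in bins of GC content and a band for their interquartile range. Most members lie above the line at their own GC content, PSMA5 and PSMC2 furthest among the transcripts of low GC content, while PSMA3, PSMG2 and PSMG4 are among those below it.

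After each library was adjusted for GC content and transcript length, 34 members were called higher and 4 lower, 4 missed the threshold, and the median was 0.53. Among all genes 34.5% were then higher and 31.7% lower, with a median of 0.02; the adjustment also re-centres each library. Of the 26 members that had risen 24 were still higher, the exceptions being PSME2 (-0.01, adjusted p = 0.893) and PSMG3 (0.06, adjusted p = 0.557). Of the 13 that had fallen, 7 were called higher. These were POMP (0.84), PSMD12 (0.47), PSME4 (0.46, adjusted p = 0.0458), PSMA2 (0.41), PSMA4 (0.38), PSMC6 (0.36) and SEM1 (0.35). PSMA3 (-0.62), PSMG4 (-0.63), PSMG2 (-0.39) and PSMD6 (-0.18) were lower before and after, and PSMA1 and PSMD14 no longer passed (0.08 and -0.03). PSMA5 and PSMC2, whose transcripts have a GC content of 37.2% and 38.9%, had the largest adjusted increases of all members (1.80 and 1.52), where their changes as deposited were 0.32 and 0.23. By subcomplex the adjusted counts were 5 higher and 1 lower of 7 alpha subunits, 7 and 0 of 7 beta subunits, 6 and 0 of 6 ATPases, 11 and 1 of 13 non-ATPases, 3 and 0 of 4 activators, and 2 and 2 of 5 assembly factors.

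**Figure D5:**
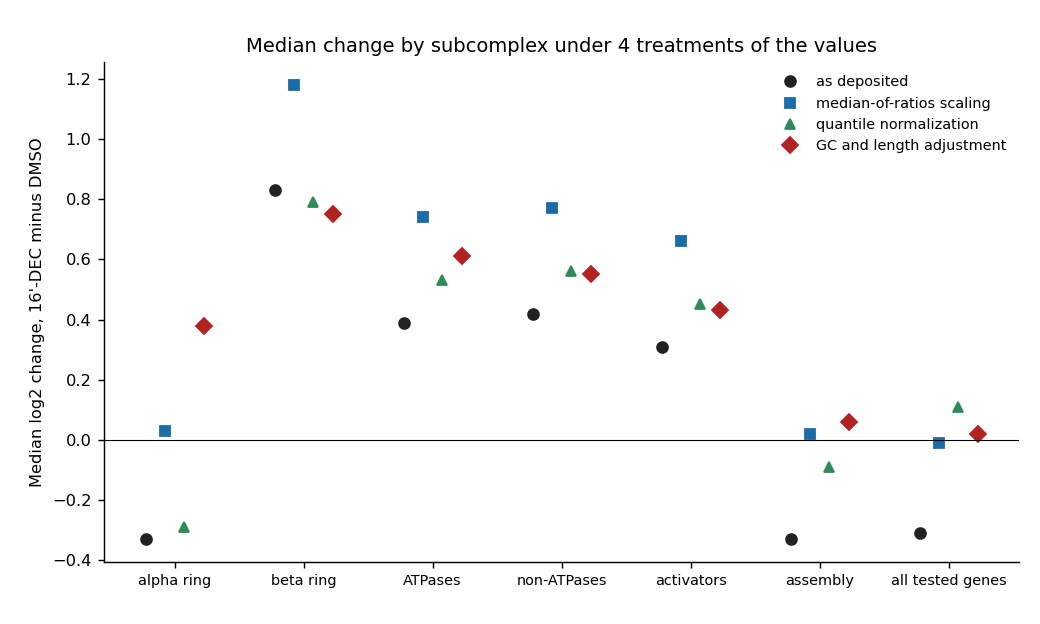
Median difference in log2(TPM + 1), 16'-DEC minus DMSO, of each subcomplex and of all tested genes, under 4 treatments of the values shown by the shape of the point. The beta ring lies between 0.75 and 1.18 under all 4, and the alpha ring runs from -0.33 to 0.38.

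Reads of a member could be shared with a neighbour or a copy. In 19 members an exon overlaps that of another annotated gene, in 17 of them on the opposite strand, and use of strand is not stated. These include PSMD13 (with SIRT3), PSMA2 (MRPL32), PSME1 (EMC9), PSME3 (BECN1), PSME4 (ACYP2), PSMD1 (HTR2B) and PSMG4 (SLC22A23 and TUBB2B). Of the other 23 members 16 rose, 6 fell and 1 did not pass. Pseudogenes named after members filled 44 rows of the table, and 1 of these, PSMC1P1, had a mean of at least 1 TPM (3.29 to 9.57 TPM over the libraries), far under PSMC1 itself (210 ± 7.2 and 261 ± 17.1 TPM).

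Promoter windows from RefSeq (GRCh38.p14, from 250 bases before to 50 bases after a start site) matched 36 of the 42 members by symbol, with 46 windows. They were searched on both strands for TGACNNNGC, the core of the antioxidant response element to which NFE2L1 and its relatives bind, and for CCAAT, the box bound by NF-Y. Matches of the pair can overlap only at an end base of the first motif. The first was in 32.6% of members' windows and 13.8% of those of protein-coding genes, and the second in 43.5% and 34.7%. Counted by gene, with a match in any window, 14 of 36 members held TGACNNNGC (38.9%, against 17.9% of protein-coding genes). These were 7 of 20 members that rose, 5 of 13 that fell and 2 of 3 that did not pass, so the match occurred in members of either direction. A match is a run of letters and not a site shown to be bound.

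The stretches around the match are shown for 3 members that rose (PSMB3, PSMD3 and ADRM1) and 2 that fell (PSMA4 and PSMD12), to set members of opposite direction side by side. Each runs 5′ to 3′ on the strand of the gene, ends before the start site and has the match in capitals. The windows are chr17:38752612-38752670 (plus strand) for PSMB3, chr17:39980745-39980803 (plus strand) for PSMD3, chr20:62302734-62302792 (plus strand) for ADRM1, chr15:78540635-78540693 (plus strand) for PSMA4 and chr17:67366709-67366767 (minus strand) for PSMD12.
PSMB3: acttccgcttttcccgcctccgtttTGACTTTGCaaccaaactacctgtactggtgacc
PSMD3: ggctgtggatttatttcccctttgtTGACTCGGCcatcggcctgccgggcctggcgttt
ADRM1: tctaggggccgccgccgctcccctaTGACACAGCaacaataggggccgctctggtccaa
PSMA4: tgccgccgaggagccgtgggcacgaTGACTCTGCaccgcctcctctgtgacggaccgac
PSMD12: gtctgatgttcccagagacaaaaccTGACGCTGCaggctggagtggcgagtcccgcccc
The first base of the match lies 104, 37, 137, 126 and 165 bases before the start site in the order given. The changes of these genes were 0.83, 0.90, 0.76, -0.61 and -0.98.

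Other genes of the pathway, 30 in all and 27 of them tested, changed in both directions: 8 rose and 13 fell, 6 missed the threshold, and the median was -0.16, where 22.7% of all tested genes rose and 48.9% fell. With either scaling 13 were higher and 6 lower, against 37.1% and 37.7% of all genes with median-of-ratios scaling and 42% and 33.3% with quantile normalization. After GC adjustment 19 were higher and 4 lower, against 34.5% and 31.7% of all genes. The immune subunit PSMB8, which can replace PSMB5, rose from 21.5 ± 1.32 to 32.8 ± 0.826 TPM (0.59, adjusted p = 1.45e-04), but stood at 0.0896 ± 0.00964 times PSMB5 with DMSO and 0.0646 ± 3.29e-04 times with 16'-DEC, without overlap. PSMB10, the counterpart of PSMB7, did not pass (0.43, adjusted p = 0.0961), except with either scaling (0.72 and 0.96) or without DMSO replicate 3 (0.61, adjusted p = 0.0259). PSMB9 was at 0.806 ± 0.217 and 1.17 ± 0.239 TPM, under the filter. The testis subunit PSMA8 was listed at 0 throughout, and the thymus subunit PSMB11 at 0 in all libraries but 1 (0.026 TPM in DMSO replicate 2). Among chaperones of the cap, PSMD9 rose by 0.75, PSMD10 fell by 0.41 (0.50 after GC adjustment) and PSMD5 fell by 0.36 (0.71 after GC adjustment). With median-of-ratios scaling and quantile normalization PSMD10 (-0.06 and -0.12) and PSMD5 (-0.03 and 0.11) did not pass. PSMD5 lost its call when replicate 1 or 3 of the controls (adjusted p = 0.0711 and 0.106) or of the treated libraries (0.0613 and 0.0729) was left out.

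Among proteins bound to the proteasome, UCHL5, a deubiquitinase that docks on ADRM1, fell from 102 ± 6.19 to 26.1 ± 1.92 TPM (-1.92 ± 0.0851, adjusted p = 2.38e-07; -0.26 after GC adjustment), while ADRM1 rose. AKIRIN2, which brings proteasomes into the nucleus, fell by 0.56, and PSMF1, an inhibitor of the core, rose by 0.63. Of the shuttle factors that deliver ubiquitylated proteins, UBQLN4 rose by 0.29 and RAD23B fell by 0.53 (0.40 after GC adjustment). RAD23B did not pass with median-of-ratios scaling (-0.18, adjusted p = 0.0579). DDI2, the protease that activates NFE2L1, fell from 20 ± 1.79 to 7.6 ± 2.01 TPM (-1.32, adjusted p = 1.25e-04; -0.32 after GC adjustment). NFE2L1 itself was at 90.3 ± 3.66 and 105 ± 25.3 TPM, with overlapping groups, and missed the threshold (0.18, adjusted p = 0.307). It passed as higher with either scaling (0.53 and 0.41) and without 16'-DEC replicate 3 (0.37, adjusted p = 0.0138). After GC adjustment NFE2L1 did not pass (0.17, adjusted p = 0.161). Its relative NFE2L3 fell from 25.8 ± 2.26 to 6.96 ± 0.378 TPM (-1.75, adjusted p = 5.99e-07; -1.33 after GC adjustment), and NGLY1, which removes glycans from NFE2L1, fell by 0.44 (0.15 after GC adjustment). NGLY1 did not pass with median-of-ratios scaling or quantile normalization (-0.10 and -0.12). The segregase VCP rose by 0.70 and its cofactors UFD1 and NPLOC4 by 0.77 and 0.86. FAF1 (0.22, adjusted p = 0.0813) and FAF2 (adjusted p = 0.999) of the same complex overlapped between groups and did not pass. All 5 genes of that complex were higher with median-of-ratios scaling, quantile normalization and GC adjustment, against 37.1%, 42% and 34.5% of all genes. UBQLN4 did not pass without 16'-DEC replicate 1 (adjusted p = 0.0503).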

How the data were processed

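The authors deposited TPM values per gene, in which each library sums to 1000000 within rounding. GRCh38, HISAT2 2.0.1, cutadapt 1.9.1, HTSeq 0.6.1 and DESeq2 appear in the submitters' processing notes with no role stated. Which annotation and lengths went into TPM is not given in the sources used here. Depth cannot be read from TPM. No pair of libraries shared over 0.063% identical values among tested genes.

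A gene was tested where its TPM averaged 1 or more over the libraries (14275 genes). The values log2(TPM + 1) were fitted in R 4.3.3 by limma 3.58.1, using eBayes with a trend on the mean; p-values are 2-sided and adjusted by Benjamini-Hochberg over all tested genes, and 0.05 is the threshold. "Rose", "fell" and "passed" refer to this fit. The scale understates changes of low genes. The fit was tested on simulated data. GC content and length came from 1 transcript per gene in GENCODE 29 (93.1% of tested genes, all members), and natural splines of both (5 degrees of freedom each) were subtracted library by library for the adjusted values. The members, the other pathway genes and the settings were chosen with earlier results of these data known. Values in every library are given, per subcomplex, for up to 2 members with the largest change each way among those that passed, and for members that did not pass; of other pathway genes, per list, up to 2 of smallest adjusted p each way, 1 of which is not reported here. NPLOC4, the ratios within libraries and the sequences printed were chosen after values were seen. Figures were drawn with matplotlib 3.10.9.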

Additional observations from a re-analysis of the deposited data

How the results depend on the processing

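The counts of 26 higher and 13 lower members were 24 to 27 and 13 to 13 over the fits without 1 library, and 25 and 13 with the replicate number as a block. Same-numbered libraries did not deviate together (r = 0.0941, -0.182 and -0.0726), and not every library correlated best with its own number. With 3 libraries per group such correlations cannot show whether the numbers pair the libraries. The block removed the call of PSMC2 alone among members (adjusted p = 0.0946) and that of PSMD5 among the other pathway genes (0.0551). Pseudocounts, filters, the mean trend and an adjusted p of 0.01 left both counts within 1.5 times, and calls were lost for at most 4 members under any of them. Median-of-ratios scaling left 7 lower members and the GC adjustment 4. Of the other pathway genes 13, 13 and 19 were higher and 6, 6 and 4 lower with median-of-ratios scaling, quantile normalization and GC adjustment.

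With median-of-ratios scaling the medians of the alpha ring, beta ring, ATPases, non-ATPases, activators and assembly factors were 0.03, 1.18, 0.74, 0.77, 0.66 and 0.02; with quantile normalization those of the last 4 were 0.53, 0.56, 0.45 and -0.09; and with GC adjustment those of all but the beta ring were 0.38, 0.61, 0.55, 0.43 and 0.06. The sign turned with median-of-ratios scaling for PSMA1 (0.03), PSMD1 (0.27), PSMG1 (0.31), PSMG2 (0.02), USP14 (0.05), TXNL1 (0.19), UBQLN1 (0.10) and FAF2 (0.34), and with quantile normalization for PSMD1 (0.15), PSMG1 (0.18), PSMD5 (0.11), TXNL1 (0.07) and FAF2 (0.35). With GC adjustment it turned for PSMA1 (0.08), PSMA2 (0.41), PSMA4 (0.38), PSMC6 (0.36), PSMD1 (0.59), PSMD12 (0.47), SEM1 (0.35), PSME2 (-0.01), PSME4 (0.46), PSMG1 (0.23), POMP (0.84), PSMD5 (0.71), PSMD10 (0.50), USP14 (1.14), ECPAS (0.27), TXNL1 (1.30), ZFAND5 (0.76), RAD23B (0.40), UBQLN1 (0.43), UBQLN2 (0.14), NGLY1 (0.15) and FAF2 (0.50). For all of these the cause was not tested. TPM give no depth, so no limit of detection can be stated.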

Other observations

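Within single libraries, where a library-wide scaling factor cancels, the order of levels was turned around in some pairs of members, which were chosen after their values were seen. PSMD12 and PSMD3, both of the lid, stood at 2.02 ± 0.188 to 1 with DMSO and at 0.544 ± 0.0464 to 1 with 16'-DEC. POMP, the assembly factor of the beta ring, stood at 2.11 ± 0.433 times PSMB5 with DMSO and 0.602 ± 0.0372 times with 16'-DEC. The transcript GC contents of PSMD12 and POMP are 37.9% and 34.0%, and those of PSMD3 and PSMB5 58.6% and 51.9%. A shift that depends on GC content does not cancel in these ratios. After GC adjustment all of these genes were higher, PSMD12 and PSMD3 by 0.47 and 0.60, and POMP and PSMB5 by 0.84 and 1.04. PSMA3-AS1, the antisense gene named after PSMA3, was at 36.6 to 39.2 TPM with DMSO and at 9.61 to 10.7 TPM with 16'-DEC, and GENCODE 29 annotates no shared exon between it and PSMA3.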
